A study of Mus musculus with 4 samples.

Results

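The authors' deposited table for naive against other effector T helper cells lists 17700 stretches of the mouse genome whose accessibility differed between those populations, and all of its rows are described here. Merging the rows of all 6 deposited tables of the study gave 52537 regions, of which 17700 (33.7%) are listed in this comparison. Every row carries a fold above 0, that is, higher accessibility in naive cells, and 0 rows were higher in other effector cells. Accessibility was measured by ATAC-seq, in which a transposase cuts and tags open chromatin. The mice had received house dust mite (HDM), an allergen that causes asthma-like airway inflammation, as sensitization and challenge, and cells were sorted at day 15. Naive cells were CD3+ CD4+ CD44lo cells of the mediastinal lymph node (mLN). Other effector cells were memory cells other than Th2 cells from lung with airways, gated among CD3+ CD4+ cells as CD44+, ST2- and CD30L+. Each population had 3 biological replicates of 1000 cells. The labels name no genotype, strain, sex or age. Labels conflict on the day (day 15 in titles, D10 in descriptions) and on the organ of naive cells, as given under processing. By the protocol the populations came from different organs, so cell state and organ cannot be told apart in this contrast.

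A fold below is the authors' log2 value, naive minus other effector, from the authors' deposited table. The table holds 1 value for each region, with no replicate value, count, error or p-value, so depth is unknown and no fold could be tested. In the tables against Th2 cells (28175 rows) and Treg cells (24765 rows), other effector cells were also the lower population in every row, so that they stood apart from the other populations throughout the study. The part of depth or of a filter on direction in this was not tested. Fewer cells of a type and less open chromatin per cell cannot be told apart. The lists of genes used below describe the regions by counts and medians, beside the same figures for all genes.

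A naive T helper cell is a resting cell that circulates between blood and lymph nodes. It is kept quiescent and able to respond by transcription factors such as TCF1 (encoded by Tcf7), LEF1, KLF2, FOXO1, FOXP1, BACH2 and SATB1, lives on interleukin 7, and enters and leaves lymph nodes through receptors such as CCR7 and the sphingosine phosphate receptor S1PR1. After activation, effector and memory cells lower much of this programme, open enhancers bound by AP-1 and related factors, and move into tissues such as the lung. Open chromatin marks both promoters, the sequences just upstream of a gene's start site, and enhancers, which can lie many kilobases away.

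The strongest start-site regions of genes on the naive cell lists are shown by sequence, because these are the listed regions where the accessible DNA can be read directly. Each line gives the 250 bases before a start site of the gene, 5' to 3' on the gene's strand, from the RefSeq promoter table of GRCm38.p6. Capitals mark matches, on either strand, to the motifs searched: CTTTGA or CTTTGT for TCF/LEF factors, AGGAAG for ETS, TGTGGT for RUNX, TGTTTAC for FOXO, CCACCC for KLF, TGANTCA for AP-1, and CAGCTG or CAGGTG as E-boxes. The listed region covered all of the printed bases in each case except Id3, where it covered 237.
Ifngr2, chr16:91546809-91547058, plus strand: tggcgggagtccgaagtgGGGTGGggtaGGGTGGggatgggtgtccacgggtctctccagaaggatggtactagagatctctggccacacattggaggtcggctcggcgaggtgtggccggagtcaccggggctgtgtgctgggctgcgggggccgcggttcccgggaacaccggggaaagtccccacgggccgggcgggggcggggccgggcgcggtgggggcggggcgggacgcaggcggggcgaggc
Klf2, chr8:72318812-72319061, plus strand: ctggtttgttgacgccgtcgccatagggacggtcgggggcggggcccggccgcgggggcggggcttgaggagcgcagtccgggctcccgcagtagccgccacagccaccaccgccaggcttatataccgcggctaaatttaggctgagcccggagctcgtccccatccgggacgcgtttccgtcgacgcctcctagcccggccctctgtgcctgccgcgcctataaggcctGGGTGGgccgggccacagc
Satb1, chr17:51832648-51832897, minus strand: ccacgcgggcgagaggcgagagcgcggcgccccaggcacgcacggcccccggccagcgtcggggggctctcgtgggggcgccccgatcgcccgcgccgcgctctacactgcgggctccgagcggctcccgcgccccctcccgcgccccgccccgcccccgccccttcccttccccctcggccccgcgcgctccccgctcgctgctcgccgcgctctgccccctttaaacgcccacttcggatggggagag
Txk, chr5:72752778-72753027, minus strand: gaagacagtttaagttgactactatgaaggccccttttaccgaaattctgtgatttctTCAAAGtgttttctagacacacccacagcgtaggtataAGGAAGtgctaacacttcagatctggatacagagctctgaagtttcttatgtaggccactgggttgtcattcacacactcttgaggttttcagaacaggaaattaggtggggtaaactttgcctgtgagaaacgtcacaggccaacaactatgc
Id3, chr4:136143572-136143821, plus strand: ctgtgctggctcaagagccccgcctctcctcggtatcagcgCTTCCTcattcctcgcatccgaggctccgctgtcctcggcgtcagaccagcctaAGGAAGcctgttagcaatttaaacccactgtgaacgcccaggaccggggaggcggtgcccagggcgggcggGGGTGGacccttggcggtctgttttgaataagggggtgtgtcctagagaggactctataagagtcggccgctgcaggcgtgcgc
Lck, chr4:129558373-129558622, minus strand: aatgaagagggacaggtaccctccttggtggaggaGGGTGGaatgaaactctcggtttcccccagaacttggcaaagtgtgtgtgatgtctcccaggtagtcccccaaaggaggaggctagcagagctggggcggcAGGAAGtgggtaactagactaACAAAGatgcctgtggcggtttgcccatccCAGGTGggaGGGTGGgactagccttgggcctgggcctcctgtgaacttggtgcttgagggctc
Themis, chr10:28668110-28668359, plus strand: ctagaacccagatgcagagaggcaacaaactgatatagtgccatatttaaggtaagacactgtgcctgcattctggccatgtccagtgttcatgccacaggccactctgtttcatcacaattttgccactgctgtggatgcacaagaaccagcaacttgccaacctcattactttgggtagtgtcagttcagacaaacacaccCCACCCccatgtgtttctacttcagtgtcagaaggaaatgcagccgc
Tgfbr1, chr4:47352972-47353221, plus strand: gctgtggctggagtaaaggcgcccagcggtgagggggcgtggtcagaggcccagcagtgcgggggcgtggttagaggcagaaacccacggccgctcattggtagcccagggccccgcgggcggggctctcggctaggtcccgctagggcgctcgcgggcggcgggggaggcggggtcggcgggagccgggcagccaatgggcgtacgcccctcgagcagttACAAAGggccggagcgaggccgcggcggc
These 8 belong to the interferon gamma receptor chain Ifngr2 (fold 9.01), the quiescence factor Klf2 (8.96), the chromatin organizer Satb1 (8.87), the Tec family kinase Txk (8.75), the E protein inhibitor Id3 (8.75), the T cell receptor kinase Lck (8.55), the thymocyte signalling protein Themis (8.14) and the TGF-beta receptor Tgfbr1 (8.10). The printed stretches ranged in GC content from 42.8% for Txk to 80.8% for Satb1. KLF letters stood in 5 of them, with 2 matches each in Ifngr2 and Lck, while TCF/LEF letters stood in Txk, Lck and Tgfbr1 and no motif of the set stood in Satb1. A match is a run of letters, not a bound site.

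Folds spanned 3.52 to 15.60, with a median of 5.41 and a middle range (25th to 75th percentile) of 4.57 to 6.52. Only 87 regions exceeded 9 and 10 exceeded 10. Regions were 150 to 2802 bp wide (median 568) and covered 11101 kb in all. Wider regions tended to have larger folds (Spearman rho 0.55 across the 17700 regions, which share libraries and are not replicates). The folds have a common floor. At the 4835 regions with identical coordinates in the naive minus Th2 table, the naive minus Th2 fold never exceeded the present one by more than 0.19, and it exceeded it by exactly 0.18 or 0.19 at 2917 of them, whose folds ran from 3.65 to 9.78. Against Treg cells the largest excess was 0.01, and 1971 of 3025 regions had 0.00 or 0.01. At these regions the tables, which share the naive libraries, therefore differ by a constant, and the size of a fold orders regions by the naive value alone. Whether the constant is the value given to a region without reads was not tested.

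Most regions lay away from gene starts. A start site of the RefSeq promoter table was within 1 kb of 1339 regions (7.56%, exact 95% binomial interval 7.18 to 7.96, counting error only), within 1 to 10 kb of 3013 (17.0%) and within 10 to 50 kb of 6631 (37.5%). A further 2624 (14.8%) were at 50 to 100 kb and 3612 (20.4%) beyond 100 kb, while 481 (2.72%) were on chromosome 18, whose start sites were not used here, or on unplaced sequences. The median distance was 29.5 kb, and 41.8% (41.0 to 42.5) of midpoints were upstream of the nearest start site. Relative to gene bodies, 1843 regions (10.4%, 9.97 to 10.9) had their midpoint within 1 kb of a gene end, 9254 (52.3%) lay further inside a gene and 6603 (37.3%) lay outside. Exons, introns and UTRs were not distinguished, because the gene table gives only the ends of each gene.

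Regions at start sites had the larger folds. Their median was 6.09, against 5.45 at 1 to 10 kb and 5.33 to 5.39 in the farther classes, and they were also wider (median 815 bp against 500 to 570). Ordered by fold, the share within 1 kb of a start site was 5.04% among the 4425 regions with the lowest folds, 5.54% and 7.12% in the next groups of that size and 12.6% among the 4425 with the highest. Their widths rose alongside, with medians of 405, 501, 613 and 842 bp, and the part of width in this gradient was not tested.

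**Figure D1:**
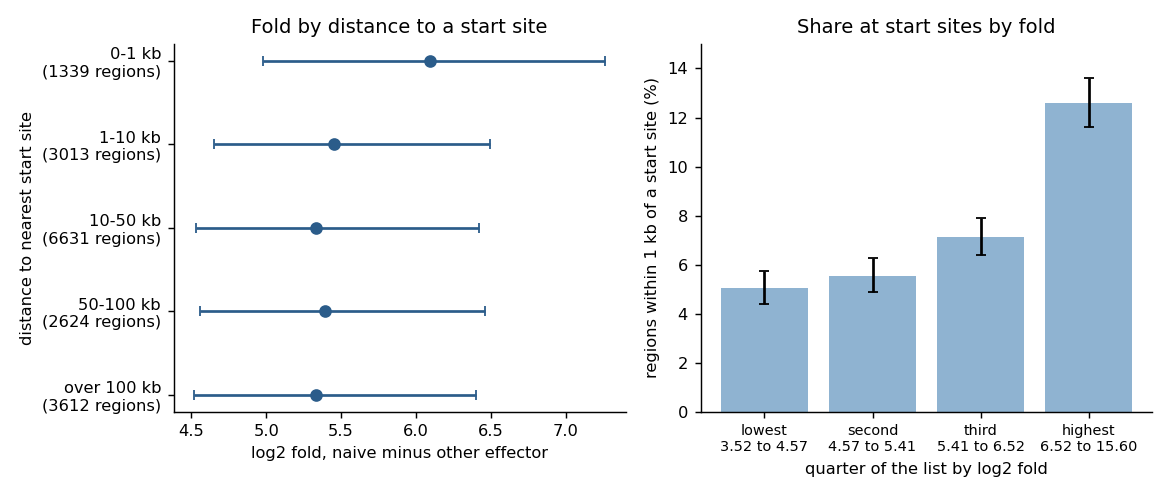
Left, median log2 fold (points) and 25th to 75th percentile (bars) of the listed regions by distance to the nearest RefSeq start site. Right, percent of regions within 1 kb of a start site in 4 groups of 4425 regions ordered by fold, with exact 95% binomial intervals; the share climbs from 5.04% to 12.6%.

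Each region was assigned to the protein-coding gene that held its midpoint, or otherwise to the gene whose end was closest, up to 100 kb away. This placed 16523 regions (93.4%) at 6456 of 21900 genes (29.5%). Of these genes, 3186 had 1 region, 877 had 5 or more and 209 had 10 or more. Genes with a region were longer (median 33.9 kb) than genes without (12.4 kb), so counts of regions are given below beside gene length. Over all genes there were 1.11 regions per 100 kb of gene length plus 20 kb for each gene, and every list examined was denser than that, from 1.44 for Th2 genes to 13.1 for homing receptors. The 14 housekeeping genes, which all cells use, stood at 3.33 regions per 100 kb with 4 genes reached (28.6%), so a density above that of all genes is not particular to genes of naive cells. Among chromosomes, 12 and 15 held 126 and 122 regions per 100 protein-coding genes, and 7 and X held 51.5 and 44.6.

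All transcription factor genes of the naive and quiescent T cell list were reached, as were all genes of the lists of E proteins and Id factors, TGF-beta genes and B cell genes described below. The 28 genes each had at least 1 region higher in naive cells, against 29.5% of all genes, with 383 regions, 9.46 per 100 kb and a median fold of 6.01 (5.43 over all assigned regions). The list was drawn up with earlier results of these data known, and naive genes are the ones the study's labels point to, so its completeness is a description. Their median length of 90.4 kb was above the 17.1 kb of all genes.

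Tcf7, which encodes TCF1, had 12 regions with folds of 4.70 to 9.76. The highest, chr11:52313875-52314897, lay 31.4 kb upstream of the start site and had 9.95 against Th2 and 9.77 against Treg cells in the authors' deposited tables. Those tables share the naive libraries and differ there by the constant given above, so these values add no separate evidence. The same holds for the values against Th2 and Treg cells given below for Satb1, Ccr7 and Il6st. Inside the gene, 7.7 kb and 14.5 kb from the same start, were regions of 8.73 and 8.38. The gene's start-site window itself had no listed region. Counting every region within 100 kb of the start gave 24 instead of 12, of which 16 were upstream, 9 of them assigned to the next gene Vdac1. The regions upstream formed a run of 14 over 43.1 kb.

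Lef1, the related factor, had 32 regions (median 6.10, highest 8.69), 26 of them inside the gene. The highest, chr3:131018987-131020063, was 90.8 kb upstream. The region at its first start site had a fold of 6.09, and one over a start site inside the gene, 46.3 kb downstream, had 7.89. A run of 50.2 kb across the gene held 16 regions. Satb1 had 30 (median 6.56), split between 16 inside the gene and 14 outside. Its highest region, chr17:51879015-51880707, was 46.6 kb upstream with a fold of 9.19, and had 9.37 against Th2 and 9.19 against Treg cells. Its start-site region was nearly as high at 8.87. Foxp1, a forkhead factor that maintains quiescence, had 55 regions and Bach2, a repressor of effector genes, had 50, more than any other gene. These genes are long (597 and 348 kb), which gave 8.91 and 13.6 regions per 100 kb, below the 25.6 of Satb1 and 23.9 of Lef1. Foxp1 had 18 of its regions in a run of 60.0 kb, and the highest region of Bach2, chr4:32238308-32240314, had a fold of 9.33.

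Klf2, which drives expression of S1pr1, is only 2.59 kb long and had 5 regions, with the highest (8.96) over its start site and 7.23 at 5.47 kb downstream. Within 100 kb of the start there were 18 regions, 9 of them assigned to the neighbour Eps15l1. Ikzf1, a lymphoid zinc finger factor, had 22 regions and the highest fold of the list, 9.78 at chr11:11725462-11726643, 35.9 kb downstream of a start site. Foxo1, which induces Klf2 and Il7r, had 18 regions (4.04 to 8.40), Bcl11b, needed for T cell identity, 17 (4.31 to 8.37) and Ets1 15 (4.15 to 8.04). Btg1, an anti-proliferative mRNA decay factor, had 24 regions around a gene of 5.81 kb, 93.0 per 100 kb, the densest of all genes with 5 or more regions. At the other end Tob1 had 1 region (6.43), and Gfi1 and Tsc22d3 had 2 each. The E proteins and Id factors were also reached at 6 of 6 genes, but with a lower median fold of 4.56. Id3 combined 8.75 at its start with 4.61 elsewhere, and the E protein genes Tcf12 and Tcf4 had 7 and 10 regions with medians of 4.39 and 4.65.

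**Figure D2:**
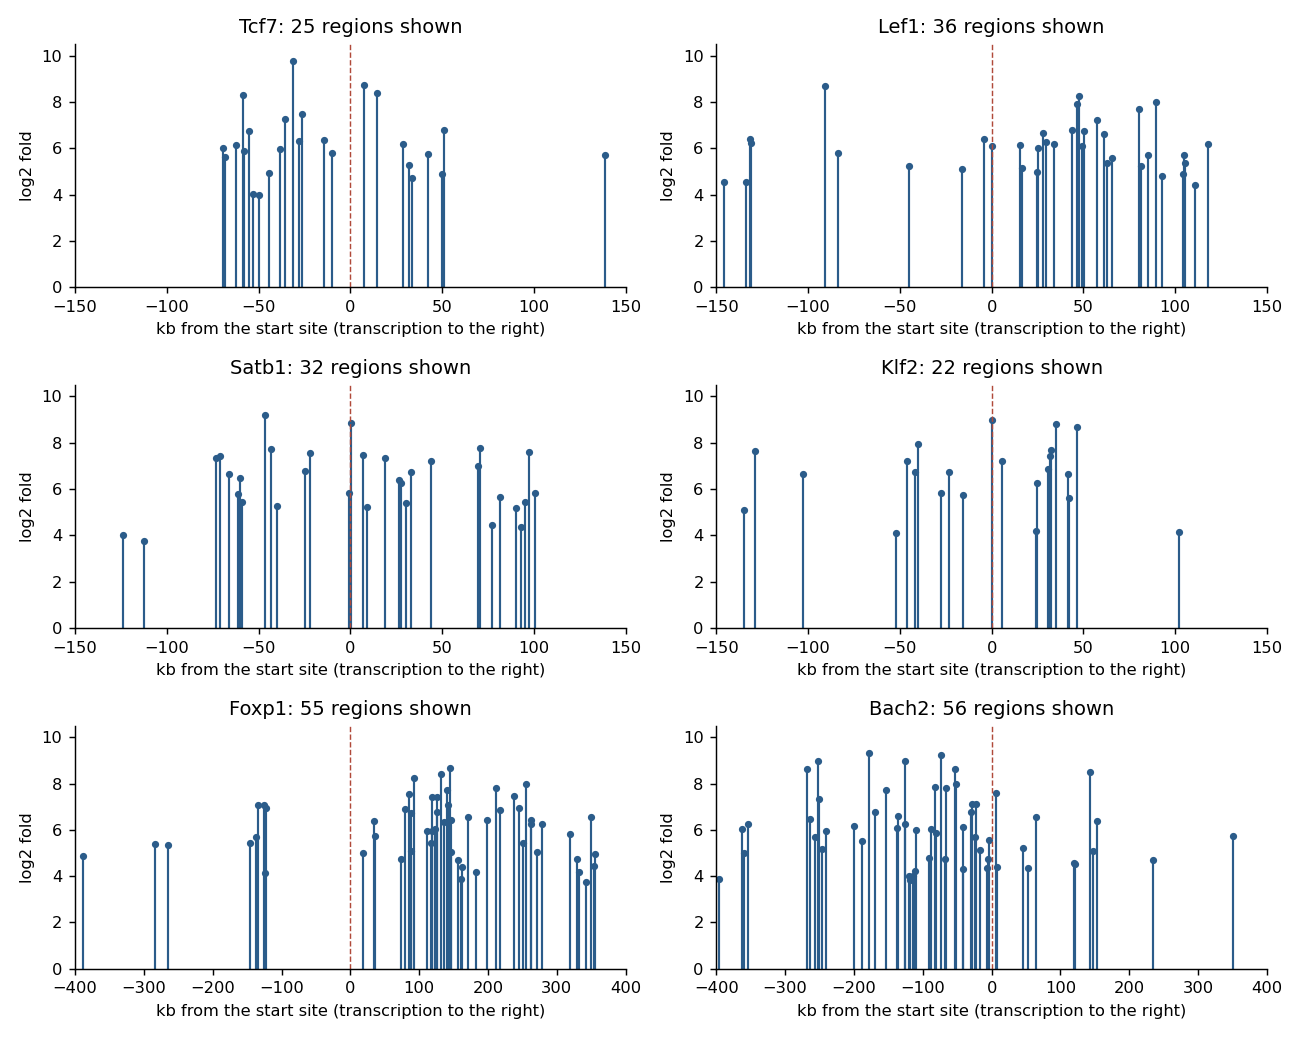
Each vertical line is 1 listed region, placed by its distance in kb from the gene's start site (0, dashed) with the direction of transcription to the right, and its height is the log2 fold. The only start site of Bach2 in the RefSeq table lies inside the gene, so regions left of 0 include part of the gene body. Every listed region in the window is drawn, whichever gene it was assigned to. Tcf7 has its highest region upstream of the start and Klf2 over it. The panels of Foxp1 and Bach2 show 400 kb on each side. Regions in the Foxp1 panel lie mostly downstream of the start, with 0 within 100 kb upstream, while those in the Bach2 panel lie on both sides.

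Homing and egress receptors had a median fold of 6.48 over 64 regions of 11 of 12 genes, the highest of the lists with assignment within 100 kb. With assignment within 10 kb their median stood 0.77 above that of all assigned regions, below the AP-1, IRF and effector list (1.19) and the lung list (0.82). S1pr1, which lets T cells leave lymph nodes, had 15 regions (5.0 to 9.11) at a gene of 4.62 kb, 60.9 per 100 kb, and only 1 of them was inside the gene. Ccr7, the receptor for entry into lymph nodes, had 14 (5.42 to 9.0), also among the densest genes with 45.3 per 100 kb. The 4 highest (9.0, 8.96, 8.39 and 8.35) were outside the gene, the 4 inside it lay between 6.76 and 7.20, and the remaining 6, also outside, between 5.42 and 7.18. The highest, chr11:99170611-99171427, was 15942 bp from the nearer gene end and had 9.19 against Th2 cells. The chemokine receptor genes Cxcr4 and Ccr9 had 6 each, Itgb7, a subunit of the gut homing integrin, 4, and Gpr183, an oxysterol receptor, 3 with a median of 7.70. Itgal, a subunit of LFA-1, had none.

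Genes for cytokine receptors and survival were reached at 17 of 19 (median fold 6.14), without Il2rg and Stat5a. Il7r, the receptor for the main survival cytokine of naive cells, had only 2 regions, 7.01 over its start and 4.68 at 3.26 kb inside. Within 100 kb of that start there were 11, of which Spef2 and Capsl took 9. The interleukin 6 receptor genes had larger folds. Il6st, the signalling chain gp130, had 8 regions with a median of 7.5. Its 4 regions upstream had 9.06, 7.85, 7.78 and 7.44, the 3 inside the gene 5.13, 5.99 and 5.28, and the 1 beyond the gene's far end 7.55. The highest, chr13:112424060-112425687, was 39.2 kb upstream and had 9.24 against Th2 cells. Il6ra had 6 regions with a median of 6.82 and a highest of 8.83. Bcl2, the survival factor, had 17 (3.86 to 8.43), and Dapl1, a gene known for its expression in resting T cells, had 13 (4.65 to 8.54). All 9 genes of the TGF-beta pathway were reached, with 70 regions and a median of 6.18. The receptors led with 27 regions at Tgfbr3 and 20 at Tgfbr2, the latter from 4.42 to 8.04, whereas Tgfbr1 had a lone start-site region of 8.10. The inhibitory Smad7 and the co-mediator Smad4 had 5 each.

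The T cell receptor and its proximal signalling genes, which effector cells use as well, were reached at 25 of 26 with 190 regions and a median of 5.85. Cd4 was the gene without any. Prkcq, the kinase PKC-theta, had 24 regions with a median of 6.94, of which 13 formed a run of 66.1 kb with a median of 7.30. The costimulatory receptor gene Cd28 had 12 regions, all with midpoints outside the gene, from 3.82 to 8.11. The highest was 599 bp wide with its midpoint 118 bp from the nearer gene end, so it reached into the gene. A listed region overlapped the start-site window of 9 of the 18 genes that have one in the promoter table, against 5.64% of all genes, among them Lck (8.55), Themis (8.14), Zap70 (7.91), Cd3d (7.64) and Cd3g (7.39).

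**Figure D3:**
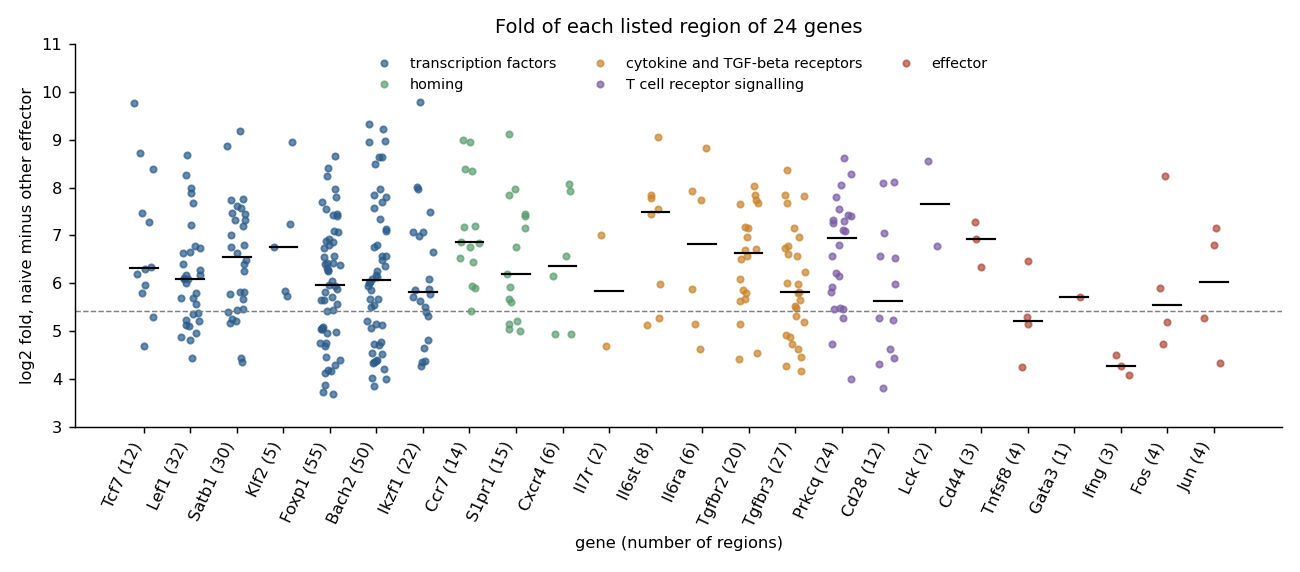
Log2 fold of every listed region (points) and its median (black bars) for 24 genes grouped by role, with the number of regions in brackets and the median of all assigned regions, 5.43, dashed. Points of a gene are different regions, not replicates, and those of Tcf7, Satb1 and Ccr7 reach 9 or more while the 3 of Ifng stay below 5.

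Genes of the effector state were also reached, above the share of all genes though less completely than the lists above. The list of AP-1, IRF and other activation-induced regulators had 13 of 24 genes with a region (54.2%, against 29.5% of all genes). It had 2.98 regions per 100 kb and a median fold of 5.91, and its median gene length was 13.9 kb, against 17.1 kb over all genes. Batf, Batf3, Junb, Jund, Fosl1, Fosl2, Maf, Nr4a1, Nr4a2, Egr1 and Rela had none. Fos and Jun had 4 each, with highest folds of 8.24 and 7.15, and the Fos region lay 26.6 kb upstream of its start. Nfatc1, the calcium-responsive factor, had 7, and the orphan receptor gene Nr4a3 had 5. A start-site window was covered at 0 of the 18 genes with one, where the share over all genes was 5.64%, so the count is near the background. Activation and tissue genes had 9 of 18 (50.0%, median length 20.6 kb), with Itga4, an integrin of tissue entry, at 8 regions. Of the sort markers of the memory gates, Cd44 and Tnfsf8 were on that list and Il1rl1 was on the Th2 list. Cd44, which was low in the sorted naive cells, had 3 regions higher in naive cells (7.28, 6.93 and 6.35), and Tnfsf8, which encodes CD30L, had 4 (4.26 to 6.46). Il1rl1, which encodes ST2, had 0, while 2 regions within 100 kb of its start (highest 5.67) were assigned to Il18r1. The naive gate did not use CD30L. Rows higher in other effector cells are not listed, so regions of these genes in the other direction cannot be seen in this table.

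Lineage genes differed in how many were reached. Of the Th1 and Th17 list, 10 of 17 had a region (median 5.43), led by Eomes with 8 (4.65 to 8.49), which encodes a T-box factor, and Il12rb2, an interleukin 12 receptor chain, with 7. Ifng had 3, all between 4.08 and 4.51. Of the Th2 list, 5 of 15 had one (33.3%, near the 29.5% of all genes), with 12 regions and a median of 5.06. Il4, Il5, Il13 and Rad50 had 0. Gata3, the Th2 lineage factor that naive cells also express, had 1 (5.71), 55414 bp from the nearer gene end. Il9r had 6, all with midpoints outside the gene, up to 7.99 at 61329 bp from the nearer gene end. With assignment within 10 kb the Th2 list kept 3 of its 12 regions. Of the Treg list, 10 of 14 had a region, among them Il2ra (3, highest 6.93), Ctla4 (3, highest 6.63) and 1 of Foxp3 (4.57). Follicular helper genes were reached at 9 of 10 with a median of 6.36, with Cxcr5, the receptor for entry into B cell follicles, at 8.96, Btla at 7.90 and 7.14, Bcl6 at 3 regions and Il21 at 5. Chromatin modifiers had 17 of 24 (median 5.64), led by Arid1b with 24 regions and Tet3 with 12, and Dnmt3a had 8.26 over its start site. Glycolysis and mTOR genes had 13 of 17 and a low median of 4.94, with Myc and the glucose transporter gene Slc2a3 at 6 each.

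Markers of other cell types were also listed, and their part in the results was not tested. B cell genes were reached at 12 of 12, with 41 regions and a low median fold of 4.69, the most at Ebf1 and at Bach1, which many cell types express (12 each). Among genes that define B cells, Ebf1 ranged up to 6.32 and Cd74, which other antigen-presenting cells also express, had 5 regions up to 6.19. Pax5 had 3 (4.15 to 4.38), Cd79b 2 (4.02 and 4.63), Cd79a 1 (6.14) and Ms4a1 1 (5.66). Of CD8 and natural killer genes, 8 of 11 had a region (72.7%, against 29.5% of all genes), with a median of 5.78. Prf1, the perforin gene, had 8.69 over its start, and Cd8b1 and Cd8a had 3 and 1 regions. Gzmb had 4, all with midpoints outside the gene, up to 8.96 at 34445 bp from the nearer gene end. With assignment within 10 kb this list kept 12 of its 22 regions. Myeloid genes had 7 of 12, without Lyz2, Itgax, Cd14, Cebpa and Csf2ra, and Spi1, the myeloid and B cell factor PU.1, had 5 (4.98 to 6.51). Lung epithelial, endothelial and stromal genes had 4 of 12 with 16 regions (median 5.11). That is 33.3% of the genes, near the 29.5% of all genes. The regions were assigned to the endothelial genes Cdh5 (7, highest 6.37) and Pecam1 (4, highest 8.30), the epithelial gene Epcam (4, highest 6.10) and Foxf1 (1, 4.28). Those of Cdh5 and Epcam all had midpoints outside the gene, with the highest 61942 and 33581 bp from the nearer gene end. With assignment within 10 kb this list kept 5 of its 16 regions. Sftpc, Sftpb, Scgb1a1, Krt8, Col1a1, Col1a2, Col3a1 and Pdgfra had 0. Signal of lung cells in the other effector sort cannot be seen in a table without rows higher in those cells.

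The antigen receptor loci, which carry germline segments that are rearranged in lymphocytes, differed widely in the number of listed regions. The T cell receptor alpha locus held 54 regions (median 5.44, highest 8.07) and the beta locus 12 (5.32, highest 8.17). The immunoglobulin heavy chain locus held 51 (median 5.66), with 11.29 at chr12:113423851-113425741, 1121 bp from the segment Ighm. By contrast the kappa locus, with 168 segments against 215 of the heavy chain locus and 202 of the alpha locus, held 1 region (4.35). The lambda and T cell receptor gamma loci also held 1 each (4.85 and 4.11). These are small, with 12 and 15 segments, so their counts cannot be set directly against those of the large loci. The relation of the heavy chain regions to the B cell markers was not tested.

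**Figure D4:**
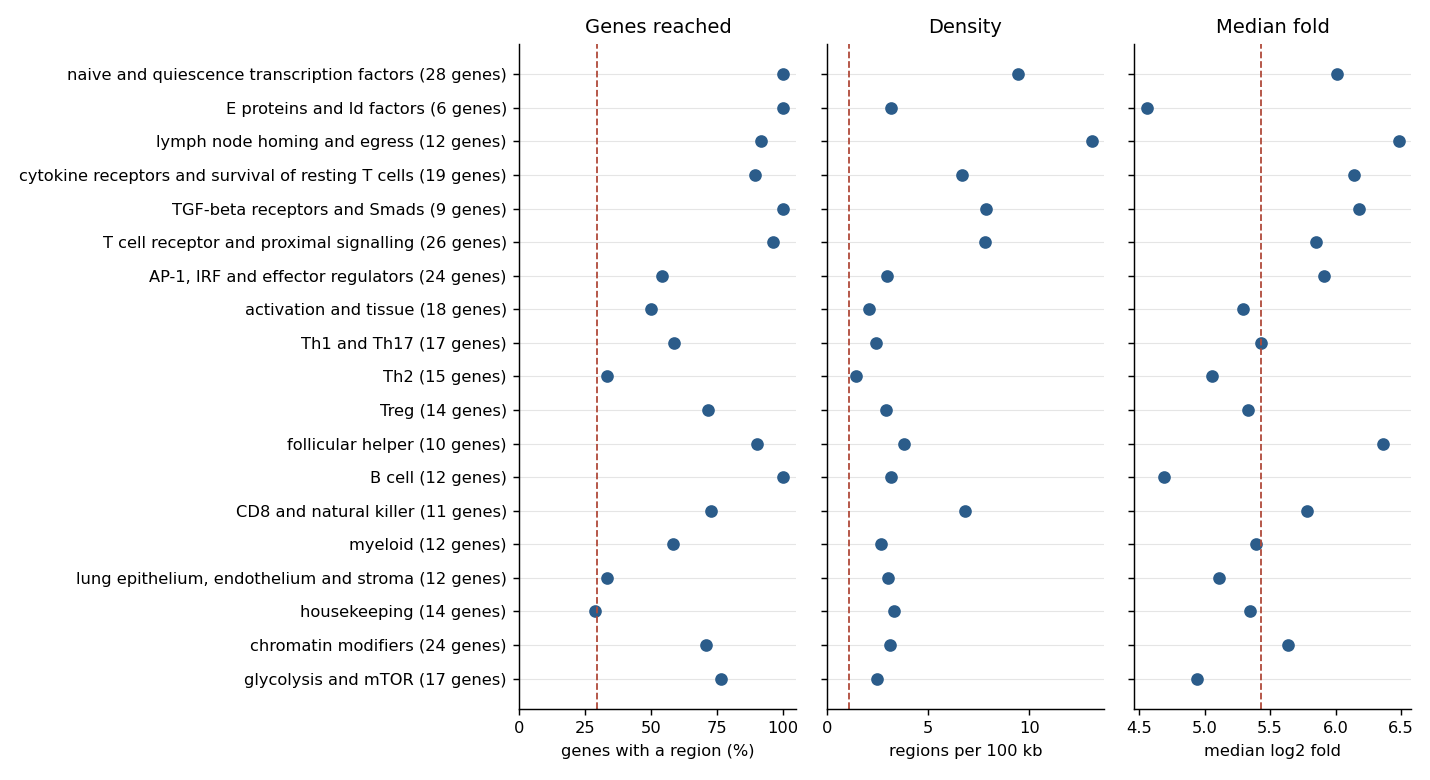
For each of the 19 gene lists, the percent of genes with at least 1 region, the regions per 100 kb (gene length plus 20 kb) and the median log2 fold, with the value over all protein-coding genes dashed. The lists of naive cell genes at the top lie to the right in all 3 panels except the E proteins and Id factors, whose median fold of 4.56 is below the dashed line. This position is not particular to them. The follicular helper, AP-1, IRF and effector, CD8 and natural killer, and chromatin modifier lists also lie to the right in all 3.

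Beyond the lists, the genes with most regions after Foxp1, Bach2, Lef1 and Satb1 were Tgfbr3 (27), the guanine exchange factor gene Trio (26), the Notch co-activator gene Maml2 (25), and Btg1, the lipid kinase gene Pip4k2a, Prkce, Prkcq, Ubac2 and Arid1b (24 each), followed by Cox10 and St8sia1 (23 each). Btg1 stood out for its small size, while Maml2, Prkce and Arid1b are long, with 5.77, 4.70 and 6.43 regions per 100 kb. After Btg1 the densest genes were Gm52008 (76.0 per 100 kb), S1pr1, and Arl4c, a small GTPase gene (58.4, highest fold 9.41), with the zinc finger gene Zfp281 (47.1) next. By median fold over 5 or more regions the leading genes were Pdlim1 (7.99), Nsmce1 (7.92), Aox2 (7.88), Setd4 (7.70) and Pfkfb3 (7.56), which encodes a regulator of glycolysis, followed by Il6st (7.5). All 5 regions of Pdlim1, Aox2 and Pfkfb3 lay inside the gene.

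Regions were partly grouped along the chromosomes. Joining those separated by at most 10 kb gave 284 clusters of 5 or more regions, holding 1816 regions (10.3%), and 22 clusters of 10 or more, while 8085 regions (45.7%) had no neighbour within that distance. Clustered regions had a median fold of 6.02 and lone ones 5.10. The clusters with most regions had 18 each, at Pip4k2a (79.4 kb, median 6.72), Foxp1, and chr7:63962764-64058849, where 13 were assigned to Klf13 and 5 to Gm45988 and the median was 7.23. Jak1, which transmits signals of interleukin 7 among others, and its neighbour Raver2 shared 17 regions over 84.8 kb. A cluster of 15 spanned Ccr7 in 50.8 kb. Another of 14 ran through the Gimap genes, GTPases of lymphocyte survival, with a highest fold of 9.33, and Ubac2 and Rbm38 had 14 each. The count of clusters depends on the joining distance: within 5 kb there were 81 and within 25 kb 752.

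A listed region overlapped the start-site window (250 bases before to 50 after) of 987 of 17492 genes with a window (5.64%), and 788 of the 1117 windows were wholly inside a region. The median fold over windows was 6.61. On the lists, start-site regions were found for Gfi1 (8.05), Foxp1 (7.97), Ikzf1 (7.96), Runx3 (7.33) and Zbtb7b (6.87) among transcription factors, for Itgb7 (7.95), P2rx7 (6.73) and Ccr9 (6.03) among homing genes, and for Cd27 (7.87), Prkcq (6.79) and Trat1 (6.47) among signalling genes. Over all genes the largest start-site folds were at Rasgrp2, a guanine exchange factor of lymphocyte adhesion (9.57), Pik3r5, a PI3K-gamma subunit (9.34), Limd2 (9.31), Atp1b1 (9.26), Acss1 (9.23) and Nsg2 (9.22).

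Motif letters were counted in these windows beside all 21230 windows of protein-coding genes. KLF letters (CCACCC) stood in 42.6% (39.7 to 45.6) of listed windows and 33.6% of all, and E-box letters (CAGCTG or CAGGTG) in 38.0% (35.2 to 41.0) and 32.0%. AP-1 letters (TGANTCA) stood in 4.74% (3.57 to 6.16) of listed windows and 6.99% of all, and TCF/LEF letters (CTTTGA or CTTTGT) in 25.3% (22.8 to 28.0) and 28.3%. For ETS (AGGAAG) the shares were 36.9% and 34.4%, for RUNX (TGTGGT) 13.5% and 15.0% and for FOXO (TGTTTAC) 2.51% and 3.0%, with the value of all windows inside the interval of the listed ones. Listed windows were richer in GC (median 60.3%) than all windows (56.3%). KLF letters are rich in GC and TCF/LEF letters are not, and the part of base composition in these shares was not tested. The regions away from start sites, which are the majority, could not be searched because no genome sequence was used here.

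**Figure D5:**
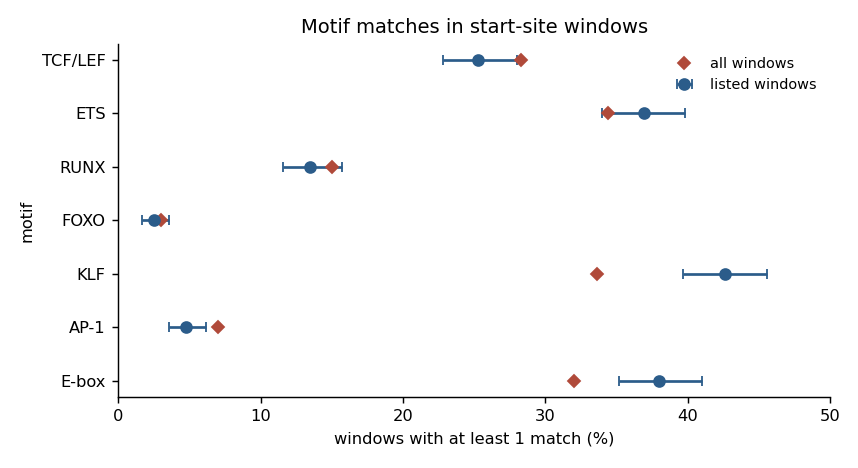
Percent of start-site windows with at least 1 match to each motif, for the 1117 windows overlapped by a listed region (circles, exact 95% binomial interval for counting error) and for all 21230 windows (diamonds). KLF and E-box letters are more frequent in listed windows and AP-1 letters less frequent.

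The largest folds lay outside the gene lists. The first 3, 15.60, 14.41 and 12.98, lay within chr1:24611464-24614734, a segment that resembles mitochondrial DNA. Another 4 (12.07, 11.45, 11.27 and 10.17) lay together inside Myo3a, an unconventional myosin gene, at chr2:22587217-22590604, and others at chr5:60042647-60043169 (10.38, no gene within 100 kb) and near Abcb11 (10.29). At these same places other effector cells were also lower than Th2 and Treg cells, by -12.98 to -8.79 and -12.81 to -8.14 in the authors' deposited tables, and whether reads map there uniquely was not tested. After these and the Ighm region, the largest folds at genes on the lists were those of Ikzf1 (9.78) and Tcf7 (9.76). The smallest fold was 3.52, inside Dgkg, a diacylglycerol kinase gene, and the next were 3.54 near Chst3, 3.54 inside Oxct1, 3.55 inside Ambra1 and 3.55 on chromosome 17 away from any gene.

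Only the table of Treg against Th2 cells shares no population with this one. Overlap of at least 1 bp with it was found for 641 regions (3.62%, 3.35 to 3.91), made up of 386 that were Treg-higher and 255 that were Th2-higher. Seen from the other table, 391 of 1759 Treg-higher rows (22.2%) and 259 of 3541 Th2-higher rows (7.31%) met a region of the naive list. Both shares were below the 33.7% of merged regions of all 6 tables that are listed here, a set that includes this list itself. The median naive minus other effector fold was 6.83 at those higher in Treg cells, 5.49 at those higher in Th2 cells and 5.39 elsewhere. The highest of them was the Ikzf1 region (9.78), with 5.24 for Treg minus Th2, followed by regions inside Tha1 (9.68 and 7.12) and Atp1b1 (9.26 and 6.11). The Il6st region at 9.06 had 5.22. On the Th2 side were regions near Vipr1 (8.92, with -5.52 for Treg minus Th2), inside Mob3b (8.73 and -6.27) and inside Pde3b (8.22 and -5.34).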

How the data were processed

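ATAC-seq libraries of 4 sorted T helper populations (3 biological replicates of 1000 cells each) were tagmented for 30 minutes, amplified in 16 PCR cycles and sequenced as read pairs of 125 bases, per the labels' protocols. Titles give day 15 and the descriptions of both populations D10. For naive cells the protocol (mLN) was followed over the source label (lung and airways). The authors used DiffBind and mm9, per the submitters' processing notes, with no version. The aligner, peak caller, normalization and threshold are named in neither the labels nor those notes. Deposited values are positions and a fold read as log2, the scale on which that tool reports it.

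The build was examined because mm9 is named: 19.1% of merged regions lay within 1 kb of a GRCm38.p6 start site, against 1.61% to 2.98% after 12 shifts of 10 kb to 3 Mb, and 0 shift was best on 19 of 19 chromosomes. Coordinates are therefore given as GRCm38, 1-based. The sign was examined at the 246 and 338 regions also listed for other effector against Th2 and Treg cells. None is listed for naive against Th2 or Treg cells, and as signed they imply differences there of at most 4.17 and 5.04, against at least 7.90 and 8.01 with the sign reversed.

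Regions were merged at an overlap of 1 bp and assigned to RefSeq protein-coding genes (21900, GRCm38.p6) by midpoint, within 100 kb. Start sites and windows came from the RefSeq promoter table, and chromosome 18 start sites were not used here. All 299 genes of 19 lists matched. Members and lists were chosen with earlier results of these data known. Named are 13 set genes, the 15 genes with most regions, the 10 densest and the 10 with the largest median fold among genes with 5 or more, up to 5 genes of each list, start-site genes of the first 6 lists, other-cell markers, the 10 largest and 5 smallest folds and the 5 clusters with most regions. Other genes named were chosen after their values were seen, and some genes under these rules are not reported here. Intervals are exact 95% binomial intervals. The assignment, the joining into clusters and the search for overlaps were tested on simulated regions. Alternatives varied windows, assignment, joining distance, overlap and a stricter list. Python 3.11.15, pandas 2.3.3, numpy 2.4.6 and scipy 1.17.1 were used.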

Additional observations from a re-analysis of the deposited data

How the results depend on the processing

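With 1 region per cluster the median fold was 5.55 instead of 5.41. The share within 1 kb of a gene end (10.4%) was 6.81% with a window of 500 bp, 15.3% with 2 kb and 12.4% among regions above the median fold. The share inside a gene (59.2%) was 60.5% among those and 55.2% when the whole region had to lie inside. Genes with a region (6456) fell to 4015 with regions above the median fold alone. The share of merged regions that are listed (33.7%) was 71.1% over the 3 tables with naive cells. The overlap with Treg against Th2 regions (3.62%) was 5.12% above the median fold. Clusters (284) numbered 81 when joined within 5 kb and 752 within 25 kb. With assignment within 10 kb, the median fold of the lung list relative to all assigned regions turned from -0.32 to 0.82. Of the 19 lists, 14 kept their median within 0.3, 4 moved further, and 6 lost over a factor of 1.5 in their count of regions. The 7 motif shares stayed within their intervals with at least 50% of the window covered and with windows of all gene kinds, a setting chosen after seeing the data. Likewise chosen later, counting all regions within 100 kb of a start site raised Tcf7 from 12 to 24, Klf2 from 5 to 18 and Il7r from 2 to 11, and lowered Foxp1 from 55 to 9 and Bach2 from 50 to 24. No paired analysis was possible because the tables hold no replicate values, and for that reason no replicate was left out in turn. Without counts the depth is unknown, and intervals cover only the counting of regions.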
